A study of Mus musculus with 6 samples.

Results

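The genes described here are 44 nuclear receptor genes of the mouse, taken by symbol from a table of 47729 genes. The list holds Nr2f1 with its relatives Nr2f2 and Nr2f6, the retinoic acid receptors, the retinoid X receptors and further members of the superfamily, and all 44 symbols were found. Genes entered it by name, with no threshold on any value. RNA was sequenced from 4T1 and 4TO7, both mouse mammary carcinoma lines from a spontaneous tumour of the BALB/c strain, with 3 libraries per line. Both lines were kept in DMEM with 10% FBS (fetal bovine serum), and the labels record no treatment. Each group is a single line grown in triplicate. The labels do not say whether the 3 cultures were independent, and the p-values measure only the spread between them, which may be technical. The comparison of the lines is the one the series was built for.

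As background, nuclear receptors are transcription factors with a zinc-finger DNA-binding domain and, in most members, a domain that binds a small lipophilic ligand such as a retinoid, a steroid or a thyroid hormone. Retinoic acid receptors bind DNA as heterodimers with retinoid X receptors, sit with corepressors when ligand is absent and recruit coactivators when it is present. NR2F1, also called COUP-TFI, is an orphan receptor that binds repeats of the same hexamer as the retinoid receptors and can compete with them for DNA. It is known from studies of disseminated tumour cells as a factor of quiescence. 4T1 is used as a line that spreads and grows in distant organs, and 4TO7 as its relative that reaches them but rarely grows out.

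The libraries held 33605566 to 39072639 reads assigned to genes. Values are normalised read counts, that is reads divided by a size factor of the library (0.954 to 1.07). Levels of the receptor genes are ranked only per kilobase of annotated exon, while sums over marker genes are of normalised reads without regard to gene length. 4TO7 replicate 2 stood apart from the other two 4TO7 libraries on the second principal component, which held 5.27% of the variance, and its values differed from their mean by at least 1 on the log2 scale in 1537 of 14276 tested genes. The epithelial markers Epcam, Krt8, Krt18 and Cdh1 were all higher in 4T1 (4 of 4 tested), with a summed level of 138734 to 156360 against 25823 to 42449 in 4TO7. Epcam itself was at 15.7 to 33.8 in 4TO7 and Cdh1 at 139 to 221, while Krt8 (17549.7 to 25128) and Krt18 (8118 to 17067) were retained there. Of 6 fibroblast markers only Pdgfra passed the filter on low values (577 to 1344 in 4T1, 1706 to 7452 in 4TO7). Lum and Thy1 had no read, and Col1a1, Col1a2 and Dcn stayed at or below 26.9, so the summed level of 587 to 1359 in 4T1 and 1710.4 to 7484 in 4TO7 was nearly all Pdgfra. The 5 leukocyte markers summed to 251 to 470.1 in 4T1 and 93.6 to 158 in 4TO7, with Cd68 (227 to 431 and 90.8 to 156) and Csf1r (22.2 to 34.8 and 1.87 to 5.24) called higher in 4T1, Ptprc at or below 4.98, and Cd3e at 0 throughout. The 4 endothelial markers (Pecam1, Cdh5, Tek and Vwf) summed to 11.6 to 20.2 and 15.7 to 64.7, and none was tested. The part of these marker differences in the results on receptors was not tested. In bulk RNA, fewer cells of a type and less RNA per cell cannot be told apart.

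Nr2f1 was the member that set the lines apart at high level, 14.0-fold higher in 4TO7, whereas none of the retinoid receptors passed the test. Of the 44 genes, 24 passed the filter on low values (10 or more normalised reads in 3 or more of the 6 libraries), 11 had reads but too few, and 9 had no read. By limma on log2(value + 1), with p adjusted over all genes, 9 of the 24 passed at 0.05 (37.5%), beside 49.0% of all 14276 genes tested. Higher in 4T1 were Ppard, Esrra, Esr2 and Nr5a2, 4 of 24 beside 25.1% of all genes. Higher in 4TO7 were Nr2f1, Nr1d2, Nr1h2, Nr1h3 and Nr3c2, 5 of 24 beside 23.9%. The values of the lines did not overlap in 13 of the 24 members, beside 58.4% of all genes. The median log2 fold change, 4T1 minus 4TO7, was -0.21 over the tested members and 0.03 over all genes. Leaving out 4TO7 replicate 2, 10 members passed, and edgeR and DESeq2 on the recovered reads each called 10. On the fitted scale Nr2f1 had the second largest difference of the 24, after Nr5a2, which was low in both lines.

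**Figure D1:**
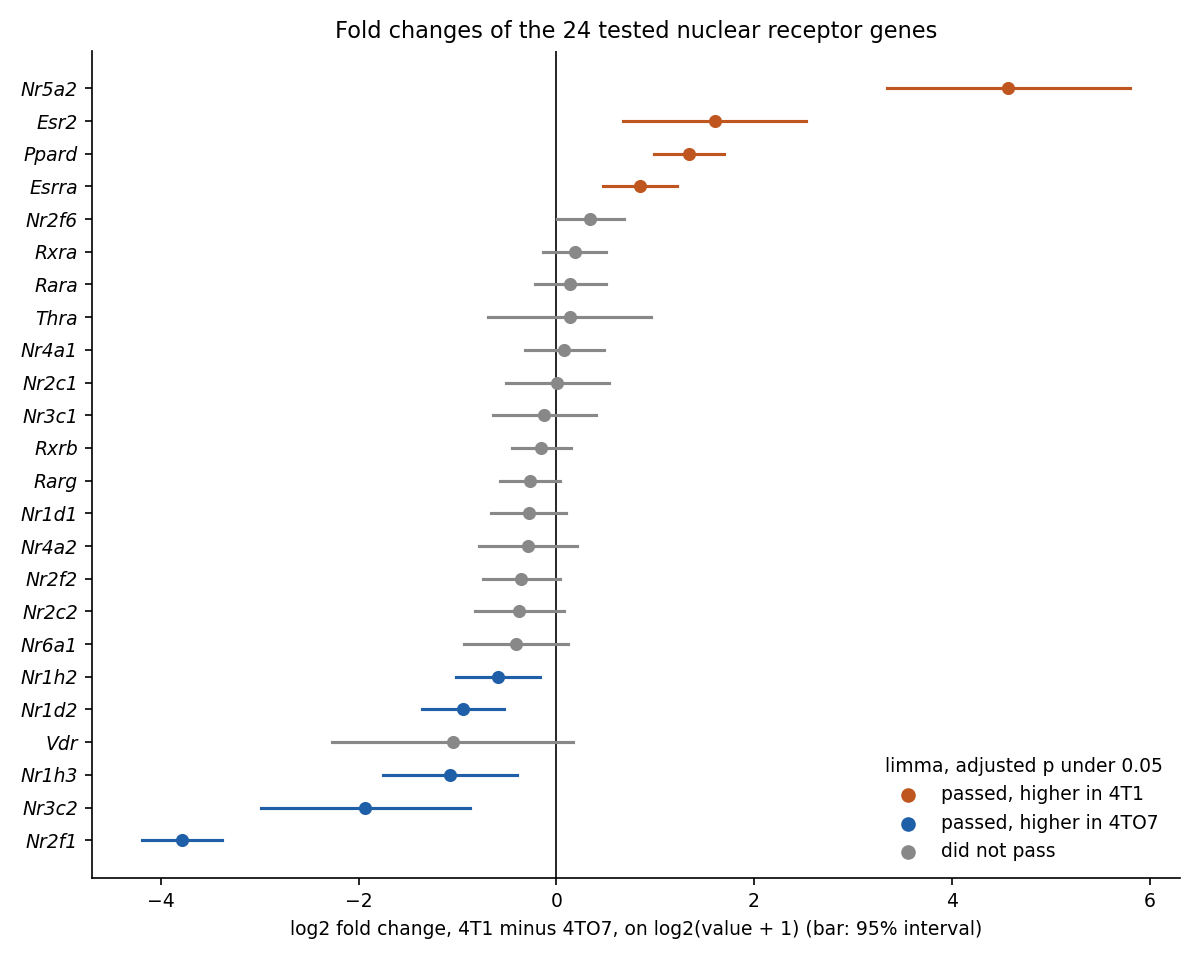
Log2 fold change (4T1 minus 4TO7, on log2(value + 1)) of the 24 tested nuclear receptor genes, with 95% intervals; colour marks those that passed limma at an adjusted p of 0.05. Nr2f1 lies at -3.79 with a narrow interval and Nr5a2 at 4.57 with a wide one, and 14 of the 15 genes that did not pass have intervals within 1 log2 unit of 0 on either side, Vdr being the exception.

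Nr2f1 (ENSMUSG00000069171) lies on the minus strand at chr13:78188973-78199757 of GRCm38. The 4T1 libraries had 718, 742 and 709 normalised reads and the 4TO7 libraries 12099.9, 7727 and 10637, in the order of replicates 1 to 3 that is kept throughout. All 3 4TO7 libraries lay far above all 3 of 4T1, and the 4T1 values were nearly equal while 4TO7 replicate 2 was the lowest of its line. The means were 723 ± 17.3 in 4T1 and 10155 ± 2226 in 4TO7 (SD, n = 3), with a log2 fold change of -3.79 (SE 0.18, 95% interval -4.19 to -3.38, adjusted p = 1.127e-06, limma). Over the 16 alternative settings the log2 fold change ran from -3.97 to -3.65 and passed in each. The authors' deposited table gives 3.81 for 4TO7 over 4T1 with an SE of 0.21.

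Per kilobase of exon, Nr2f1 stood below most of the 24 tested members in 4T1 and above all of them in 4TO7. It averaged 142 normalised reads per kilobase in 4T1, the 16th level of the 44 genes, and 1994 in 4TO7, the first. In 4TO7 its lowest library (1517) was above the highest value of the next gene, Nr1d2 (845 to 1058). Rarg (696 to 830.4), Nr1h2 (541 to 789), Rara (476 to 665) and Nr2f6 (506 to 562) followed in 4TO7, each overlapping the next in range. The order in 4T1 began with Nr2f6 (604 to 781), Ppard (570 to 701), Rarg (599 to 674) and Rara (581 to 678), whose ranges overlapped, so that no first place can be given there.

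**Figure D2:**
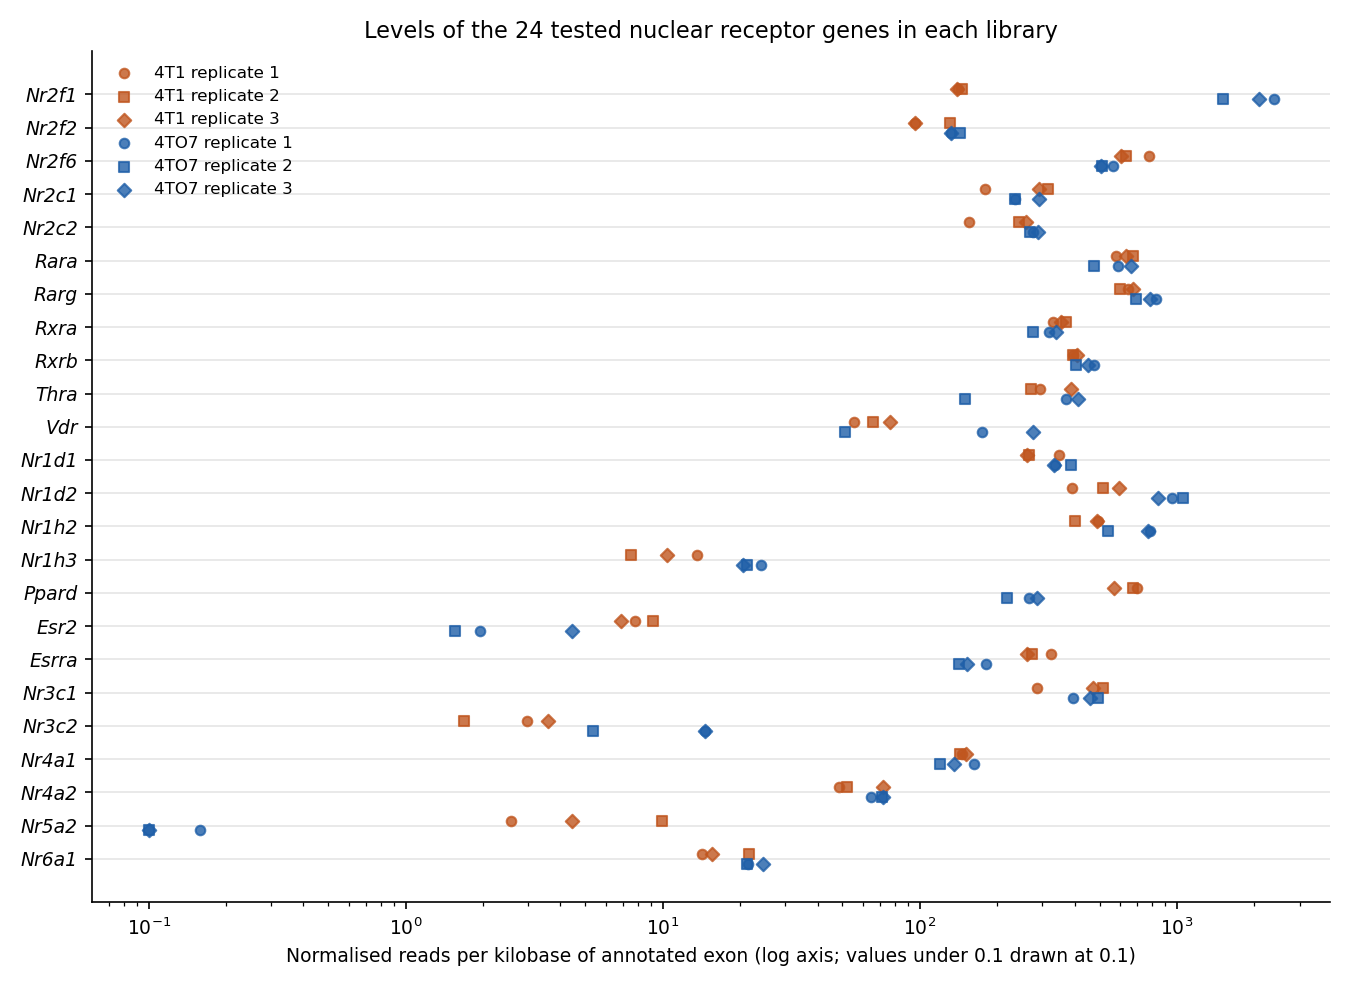
Normalised reads per kilobase of annotated exon (log axis) of the 24 tested nuclear receptor genes in each of the 6 libraries, ordered by receptor group. Nr2f1 shows the widest gap among the genes above 100 reads per kilobase, and the retinoid receptors (Rara, Rarg, Rxra, Rxrb) keep the points of both lines close together.

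The COUP-TF genes are close relatives, so their coding sequences bear on whether reads could be exchanged between them. The windows shown cover 90 bases at the start of the part that encodes the zinc-finger DNA-binding domain and were read from GENCODE transcripts of GRCm38. They are bases 216 to 305 of 1260 coding bases in Nr2f1, 204 to 293 of 1242 in Nr2f2 and 138 to 227 of 1170 in Nr2f6, and capitals mark bases that differ from Nr2f1.
Nr2f1: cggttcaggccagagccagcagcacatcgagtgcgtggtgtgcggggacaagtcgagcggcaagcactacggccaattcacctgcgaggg
Nr2f2: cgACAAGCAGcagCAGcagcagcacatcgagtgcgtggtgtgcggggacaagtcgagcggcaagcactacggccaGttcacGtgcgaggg
Nr2f6: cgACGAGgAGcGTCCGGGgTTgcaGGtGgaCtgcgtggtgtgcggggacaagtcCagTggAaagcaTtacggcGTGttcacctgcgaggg
Nr2f2 matched Nr2f1 at 77 of the 90 bases and Nr2f6 at 63, and the longest identical run over the whole coding sequence was 59 bases for Nr2f2 and 23 for Nr2f6. Over whole transcripts, 10 of 5090 stretches of 50 bases in Nr2f1 (0.196%) were also present in Nr2f2. Across the family, 41 of the 44 genes shared under 1% of their 50-base stretches with transcripts of any other gene. The exceptions were Nr2c2 (5.39%), Nr1d2 (5.13%) and Nr2e3 (1.61%).

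The relatives of Nr2f1 did not follow it. Nr2f2 (COUP-TFII, chr7:70351944-70366735, minus strand) had 827, 1133 and 827 normalised reads in 4T1 and 1144, 1236 and 1144 in 4TO7. Its ranges did not overlap but nearly touched, and the difference did not pass (log2 -0.35, 95% interval -0.74 to 0.03, adjusted p = 0.115). It passed without 4T1 replicate 2, its highest 4T1 library (-0.50, adjusted p = 0.0396), and with libraries scaled to equal totals (-0.48, adjusted p = 0.0376). Nr2f6 (EAR2, chr8:71374123-71381960, minus strand) had 2329, 1892 and 1801 in 4T1 and 1678, 1526 and 1509.9 in 4TO7. Here 4T1 was the line with the higher values, without overlap, and the difference did not pass either (log2 0.35, 95% interval 0.01 to 0.68, adjusted p = 0.0839). Of the exon bases of Nr2f6, 54.4% also lie in Ocel1 on the opposite strand (714 reads in all of 4T1 and 430 in 4TO7). The strand setting of the counting is not stated in the notes at hand. Without strand, reads over the shared bases of such pairs may have been given to either gene or left out. Reads left out would lower the level per kilobase of Nr2f6. This was not tested.

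As shares of the summed level per kilobase of the 3 COUP-TF genes, Nr2f1 made up 13.9% to 16.6% in the 4T1 libraries and 69.9% to 77.4% in the 4TO7 libraries. Nr2f6 held 69.6% to 76.7% in 4T1 and 18.3% to 23.6% in 4TO7, so the leading gene of the group was Nr2f6 in each 4T1 library and Nr2f1 in each 4TO7 library. The sum itself was 839 to 1018 in 4T1 and 2172 to 3071 in 4TO7. Of the summed level of all 44 genes, Nr2f1 held 2.03% to 2.20% in 4T1 and 19.4% to 24.9% in 4TO7.

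**Figure D3:**
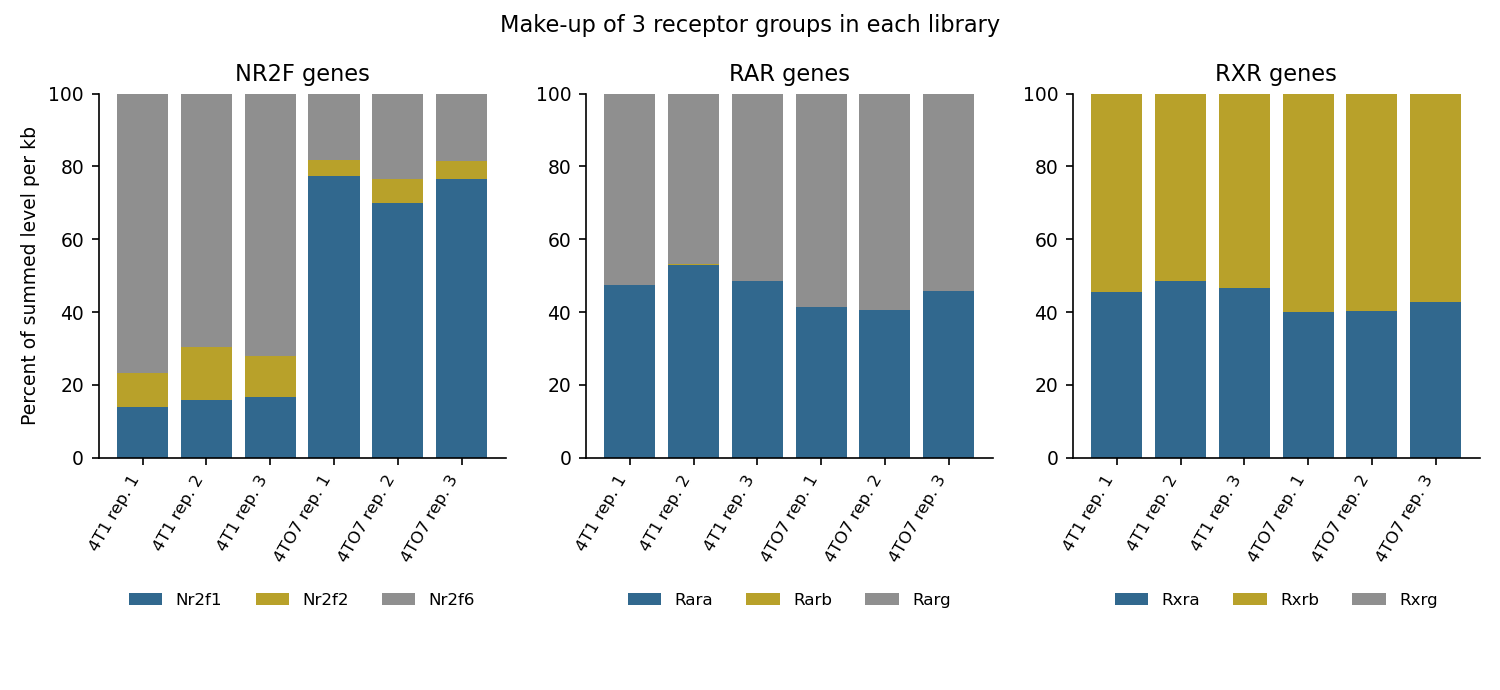
Share of each gene in the summed level per kilobase of the NR2F, RAR and RXR genes, 1 bar per library. Nr2f1 takes 69.9% to 77.4% of the NR2F sum in 4TO7 against 13.9% to 16.6% in 4T1, while Rara holds 47.4% to 53.1% of the RAR sum in 4T1 and 40.6% to 45.9% in 4TO7, and Rxra 45.5% to 48.5% and 40.0% to 42.8% of the RXR sum.

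Within 500 kb of Nr2f1, 4 annotated genes were in the table and 2 were tested. Both were higher in 4TO7, by less than Nr2f1. Fam172a, which lies beyond the 3′ end of Nr2f1, had 859, 1047 and 1020.4 in 4T1 and 1729, 1551 and 1701 in 4TO7, 1.70-fold higher (log2 -0.77, SE 0.14, adjusted p = 0.002818). The antisense transcript A830082K12Rik, which runs away from the Nr2f1 start on the plus strand, had 163, 164 and 149 in 4T1 and 279, 224 and 449 in 4TO7 (log2 -0.93, SE 0.27, adjusted p = 0.02228). It shares 123 exon bases with Nr2f1 (2.42% of the Nr2f1 exons), so some of its reads could be those of Nr2f1 if counting ignored strand. Pou5f2 (5 and 7 reads in all) and Gm6317 (2 and 4) were too low to test.

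A promoter window of Nr2f1 is shown because the gene carries the largest well-measured difference of the family. RefSeq gives 2 windows for the gene, each from 250 bases before to 50 bases after a start on the minus strand of GRCm38.p6. The upstream one, chr13:78198824-78199123, is printed and lies within the span of A830082K12Rik. The other, chr13:78196400-78196699, has a GC content of 43.0%. Both windows lie inside the GENCODE span of Nr2f1 (chr13:78188973-78199757). Neither covers the bases upstream of the annotated start at 78199757.
Nr2f1 promoter: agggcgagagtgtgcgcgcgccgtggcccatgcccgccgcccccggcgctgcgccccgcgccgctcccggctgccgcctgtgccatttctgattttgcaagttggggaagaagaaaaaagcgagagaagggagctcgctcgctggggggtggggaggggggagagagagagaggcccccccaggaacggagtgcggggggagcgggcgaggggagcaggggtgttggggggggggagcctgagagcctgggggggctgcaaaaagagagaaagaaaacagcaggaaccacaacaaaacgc
The printed window has a GC content of 68.0%, beside a median of 52.67% over all 32851 mouse windows and 59.0% over the 60 windows of the 40 members that had one. The hexamer AGGTCA, searched on both strands, is absent from both windows, so the printed letters have no capitals. Among the members, 12 of 60 windows held AGGTCA, in 11 genes (Rara, Rarg, Rxra and Rxrg among them), beside 5340 of 32851 windows overall (16.26%). A match is a description of the letters only.

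Rara and Rarg made up nearly all of the retinoic acid receptor level in both lines, and Rarb was nearly silent. Rara (chr11:98927818-98974942, plus strand) had 2535, 2958 and 2777 normalised reads in 4T1 and 2565, 2076 and 2901 in 4TO7, with overlapping ranges (log2 0.14, 95% interval -0.22 to 0.51, adjusted p = 0.481). Rarg (chr15:102234938-102257517, minus strand) had 2741, 2554 and 2874 in 4T1 and 3538, 2967 and 3341 in 4TO7. The 4TO7 values of Rarg were all above those of 4T1, but by a margin that did not pass (log2 -0.27, 95% interval -0.57 to 0.03, adjusted p = 0.124). With libraries scaled to equal totals, a setting that moves the median of all genes by -0.13, the value for Rarg was -0.40 (adjusted p = 0.0416). Rara held 47.4% to 53.1% of the summed RAR level per kilobase in 4T1 and 40.6% to 45.9% in 4TO7, and Rarg nearly all of the rest.

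Rarb, a textbook target of its own ligand, had 4.04, 2.99 and 0.97 normalised reads in 4T1 and 0 in each 4TO7 library. That is 8 reads against 0, at least 2.66-fold higher in 4T1 when the 4TO7 libraries are set at 3 reads over the line, and too few for the test. Moreover 34.1% of its exon bases lie in Top2b on the opposite strand, which had 20549 and 26699 reads. Its promoter is shown for the retinoic acid response element it carries, a direct repeat that Rarb is known for (chr14:16575427-16575726, minus strand, GRCm38.p6, from RefSeq, with the repeat in capitals).
Rarb promoter: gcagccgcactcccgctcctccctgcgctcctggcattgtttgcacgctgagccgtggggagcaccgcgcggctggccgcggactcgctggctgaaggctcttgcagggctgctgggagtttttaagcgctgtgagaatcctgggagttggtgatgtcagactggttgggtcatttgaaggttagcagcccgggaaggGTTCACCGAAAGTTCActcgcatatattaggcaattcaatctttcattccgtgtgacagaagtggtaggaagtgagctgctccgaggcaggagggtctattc
The pattern of GTTCA repeated in the same direction after any 6 bases, searched on both strands, was in 25 of 32851 windows (0.0761%), and among the members in that of Rarb alone. It was written after the Rarb element, so the match in Rarb was fixed in advance.

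The retinoid X receptors, the obligate partners of RAR, VDR, thyroid hormone, LXR and PPAR receptors, were represented by Rxra and Rxrb. Rxra (chr2:27676440-27762957, plus strand) had 1796, 2029 and 1942 in 4T1 and 1734, 1499.8 and 1844 in 4TO7 (log2 0.19, 95% interval -0.13 to 0.51, adjusted p = 0.298). Rxrb (chr17:34031812-34038399, plus strand) had 1564, 1567 and 1627 in 4T1 and 1891, 1609.8 and 1793 in 4TO7 (log2 -0.15, 95% interval -0.45 to 0.15, adjusted p = 0.369). Both pairs of ranges overlapped, and both intervals stayed within 0.51 of 0 on the log2 scale. Rxrg had no read in any library. Rxra held 45.5% to 48.5% of the RXR sum per kilobase in 4T1 and 40.0% to 42.8% in 4TO7. In all, 0 of the 4 tested retinoid receptors passed by limma, 0 had an unadjusted p under 0.05, and edgeR, DESeq2 and the authors' deposited table also called 0.

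**Figure D4:**
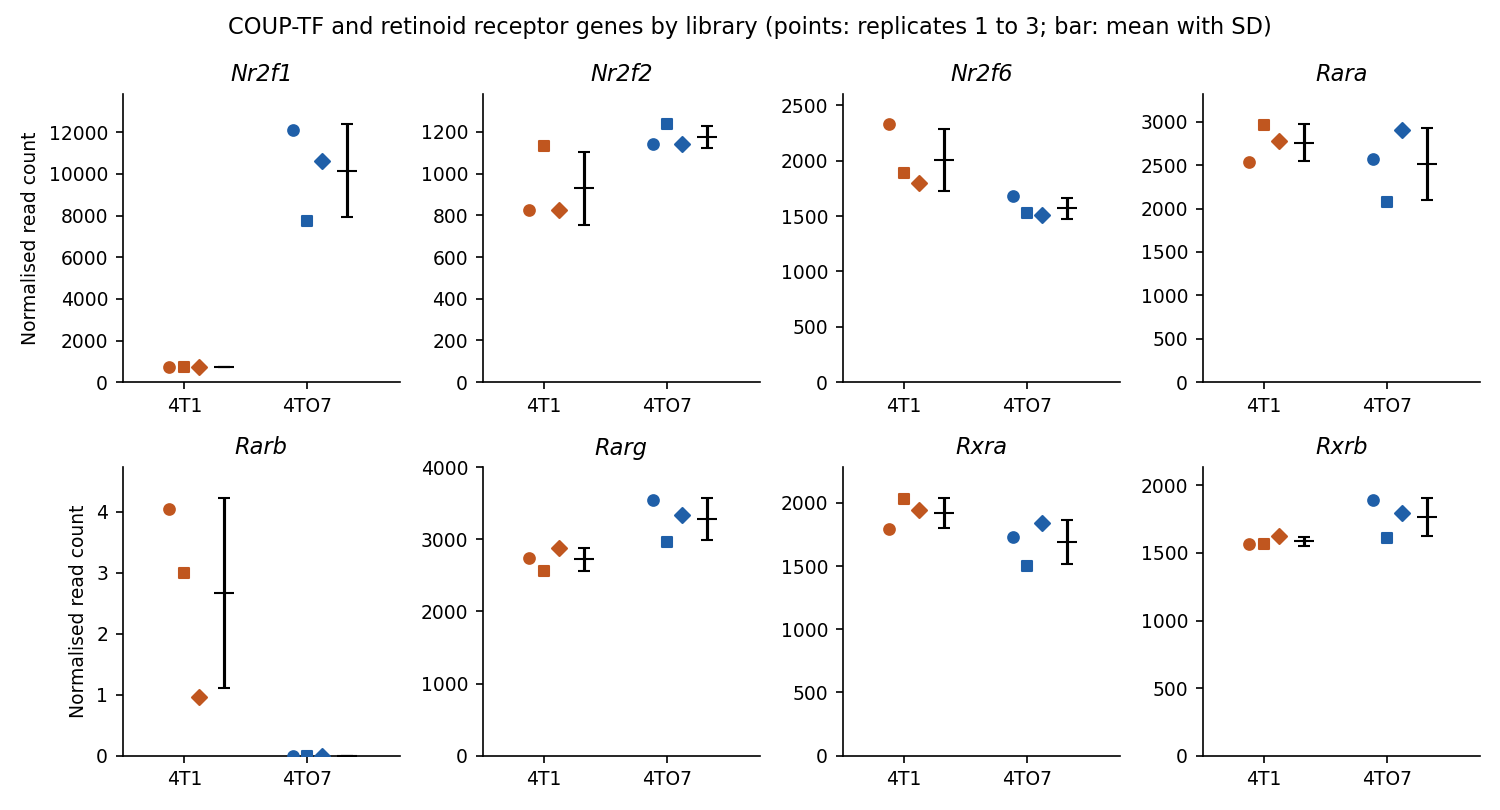
Normalised read counts of the COUP-TF and retinoid receptor genes in the 3 libraries of each line (points), with mean and SD (bars, n = 3); each panel has its own axis from 0. Nr2f1 separates the lines by 14.0-fold, Rarb is at 4.04 or below, and the other panels show ranges that overlap or lie close together.

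Genes that supply, bind or clear retinoids differed in both directions. Of the 21 genes of that list, 9 were tested and 8 passed, 4 in each direction, beside 49.0% of all genes tested, around a median log2 fold change of 0.16. Whether this share differs from that of the receptors was not tested. Rdh10, which oxidises retinol to retinal, was higher in 4T1 with 2935, 5377 and 4076 against 780.3, 563 and 857 (log2 2.47, SE 0.25, adjusted p = 9.151e-05). Fabp5, which can carry retinoic acid to PPARD, was also higher in 4T1 with 3999, 3296 and 3206 against 639, 1135 and 706 (log2 2.12, SE 0.23, adjusted p = 0.00013). The lines did not overlap in either gene. Of the 4 genes that passed higher in 4TO7, Rbp2 had 204 ± 51.5 in 4T1 and 766 ± 23.6 in 4TO7. Adh7 had 651 ± 87.8 and 1246 ± 196 (SD, n = 3). Their adjusted p was 0.000204 and 0.00326 by limma, and the lines did not overlap in Rbp2 or Adh7. Neither was followed singly under the alternative settings. Crabp2, which carries retinoic acid to the RARs, had 24.8 ± 4.20 in 4T1 and 22.3 ± 4.88 in 4TO7 (SD, n = 3) and did not pass (adjusted p = 0.696).

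Dhrs3, which reduces retinal back to retinol and is itself induced by retinoic acid, had 11.1, 9.96 and 37.7 in 4T1 and 196, 22.0 and 303 in 4TO7. It passed (log2 -2.69, SE 0.93, adjusted p = 0.041) although 4TO7 replicate 2 lay within the 4T1 range. Its call was lost in 6 of 15 alternatives, among them leaving out 4T1 replicate 1 (adjusted p = 0.145) or replicate 2 (0.135) and 4TO7 replicate 1 (0.118) or replicate 3 (0.122). Enzymes that make retinoic acid were nearly silent, with 12 and 28 reads of Aldh1a1 in all of 4T1 and 4TO7, 1 and 1 of Aldh1a3, and none of Aldh1a2. The clearing enzymes Cyp26a1 (3 and 14 reads) and Cyp26b1 (18 and 60 reads) were too low to test.

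**Figure D5:**
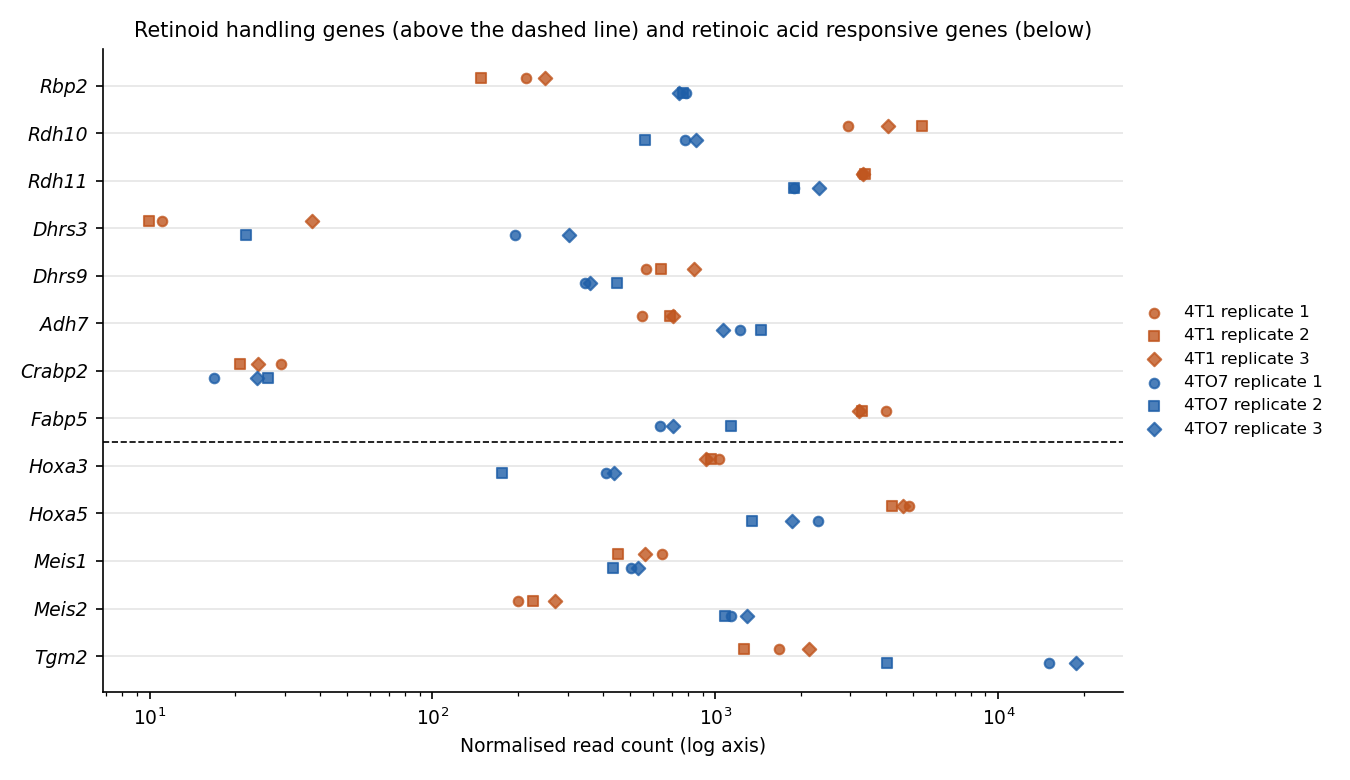
Normalised read counts (log axis) of tested genes of retinoid handling and of retinoic acid response in each library. Rdh10 and Fabp5 lie higher in 4T1, Meis2 lies higher in 4TO7, and 4TO7 replicate 2 lies apart from its line in Dhrs3 and Tgm2.

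Genes known to respond to retinoic acid did not move as a group. Of 12 listed, 6 were tested, with 2 passing in each direction and a median of -0.05. That is 66.7% of those tested, beside 49.0% of all genes. Tgm2, a transglutaminase induced by retinoids in many cells, had 1675, 1256 and 2142 in 4T1 and 15068, 4032 and 18843 in 4TO7 (log2 -2.66, SE 0.52, adjusted p = 0.003477), and Meis2, a homeobox cofactor, 199.8, 227 and 271 against 1138, 1076 and 1288 (log2 -2.33, SE 0.18, adjusted p = 1.972e-05). Hoxa5, with 4824, 4206 and 4584 against 2312, 1349 and 1862, and Hoxa3, with 1028, 965 and 929 against 411, 176 and 437, were higher in 4T1 (log2 1.33, SE 0.20 and 1.62, SE 0.33; adjusted p = 0.0008934 and 0.004229). Meis1 overlapped between the lines.

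Of 10 genes tied to NR2F1 in work on tumour dormancy, 6 were tested, 2 passed higher in 4T1 and 2 higher in 4TO7. These were 66.7% of the tested genes of the list, beside 49.0% of all genes tested. Sox9, a transcription factor reported downstream of NR2F1, had 3682, 3696 and 3457 in 4T1 and 14148, 11888 and 15442 in 4TO7, 3.83-fold higher (log2 -1.93, SE 0.14, adjusted p = 1.157e-05). Cdkn1b, the cell cycle inhibitor p27, had 3129, 3931 and 4273 against 7776, 6471 and 7565 (log2 -0.95, SE 0.16, adjusted p = 0.001527). Tgfb2, a ligand linked to dormancy in bone marrow, had the opposite order, with 112, 114 and 109 against 8.42, 14.7 and 18.9 (log2 2.97, SE 0.33, adjusted p = 0.0001508), as did Bhlhe41, with 1157, 1319 and 1735 against 657, 309 and 686 (log2 1.42, SE 0.31, adjusted p = 0.006532). Thus the 4 genes that passed were split between the lines.

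Among the receptors for thyroid hormone and vitamin D, Vdr and Thra both had their lowest value in 4TO7 replicate 2. The result for Vdr depended on the test used and on that library. Vdr, the vitamin D receptor, had 314, 371 and 433 in 4T1 and 985, 290.3 and 1558 in 4TO7. Replicates 1 and 3 of 4TO7 lay above 4T1 and replicate 2 lay below it, and the difference did not pass (log2 -1.05, SE 0.53, 95% interval -2.26 to 0.17, adjusted p = 0.136). It passed without 4TO7 replicate 2 (log2 -1.74, adjusted p = 0.000313), by edgeR (-1.38, adjusted p = 0.0392) and by DESeq2 (-1.36, adjusted p = 0.00839), and the authors' deposited table gives an adjusted p of 0.01116. Thra, the thyroid hormone receptor alpha, had 1348, 1250.5 and 1780.2 in 4T1 and 1715, 693 and 1906 in 4TO7 (log2 0.14, SE 0.36, adjusted p = 0.777). It was again lowest in 4TO7 replicate 2, 1.38 below the mean of the other two on the log2 scale, beside 2.09 for Vdr, 1.42 for Nr3c2 and 0.55 for Nr2f1. Thra and Nr1d1 overlap at their 3′ ends on opposite strands by 263 exon bases. The 5 tested genes of vitamin D, thyroid hormone and corticoid ligand enzymes all passed, beside 49.0% of all genes tested. Higher in 4T1 were 4 of the 5, beside 25.1% of all genes. Cyp24a1, the classical vitamin D target that degrades the hormone, had 40.4, 23.9 and 67.6 against 5.61, 2.10 and 3.98 (log2 3.15, SE 0.46, adjusted p = 0.0007964). Cyp27b1, which activates vitamin D, had 68.6, 43.8 and 40.6 against 19.7, 13.6 and 6.97 (log2 1.92, SE 0.41, adjusted p = 0.005439). Both were thus higher in the line with the lower Vdr mean, while Dio2, which activates thyroid hormone, was higher in 4TO7 with 662, 791 and 826 against 70.6, 96.7 and 85.0 (log2 -3.17, SE 0.21, adjusted p = 7.391e-06).

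Nr1d2, which encodes the clock repressor REV-ERB beta, was higher in 4TO7. It had 2109, 2802 and 3223 in 4T1 and 5163, 5724 and 4570.5 in 4TO7, 1.90-fold higher with no overlap (log2 -0.94, SE 0.18, adjusted p = 0.003265). Nr1d1, which encodes REV-ERB alpha, had 1068, 821 and 803 against 1034, 1195 and 1022, with overlap (log2 -0.28, 95% interval -0.66 to 0.10, adjusted p = 0.197). Rora and Rorb, whose products activate through the same DNA element, were almost unread, with 7 and 2 reads of Rora in 4T1 and 4TO7 and none of Rorb.

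Of 14 clock genes around REV-ERB and ROR, 12 were tested, 4 passed higher in 4T1 and 5 higher in 4TO7 (median -0.37). Together 75.0% of those tested passed, beside 49.0% of all genes. Dbp, an output gene of the clock, had 84.8, 76.7 and 197.9 in 4T1 and 1725, 743 and 1630.3 in 4TO7 (log2 -3.54, SE 0.43, adjusted p = 0.0002986). Ciart, a clock repressor, had 311, 220.2 and 280.0 against 113, 106.9 and 88.6 (log2 1.38, SE 0.23, adjusted p = 0.00152). Per2 (162 ± 6.92 against 421 ± 216) and Per3 (488 ± 161 against 1104 ± 369; SD, n = 3) passed higher in 4TO7 (adjusted p = 0.0426 and 0.0157), but each call was lost on leaving out 4T1 replicate 1 or 2 or 4TO7 replicate 1 or 3, and that of Per2 also without 4T1 replicate 3 (adjusted p of 0.0513 to 0.143). With any of those first 4 libraries left out, 3 genes of the list passed higher in 4TO7. The labels give no hour of harvest.

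The oxysterol receptors were both higher in 4TO7 by calls that did not hold with some libraries left out. Nr1h2 (LXR beta) had 1658, 1346 and 1633 in 4T1 and 2647, 1813 and 2597 in 4TO7, 1.52-fold higher (log2 -0.59, SE 0.18, adjusted p = 0.0282). The call was lost on leaving out any library except 4TO7 replicate 2, with a log2 fold change of -0.64 to -0.49 and an adjusted p of 0.052 to 0.109. Nr1h3 (LXR alpha) was far lower, with 34.3, 18.9 and 26.1 against 60.8, 53.5 and 51.8 (log2 -1.07, SE 0.30, adjusted p = 0.0167), and did not pass when 4T1 replicate 2 (log2 -0.86, adjusted p = 0.0554) or 4TO7 replicate 1 (log2 -1.005, adjusted p = 0.0643) was left out. In neither gene did the lines overlap.

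Ppard, the one PPAR gene that was tested, was higher in 4T1. It had 5267, 5074 and 4281 normalised reads in 4T1 and 1998, 1640.2 and 2152 in 4TO7, 2.53-fold higher (log2 1.34, SE 0.15, 95% interval 0.99 to 1.69, adjusted p = 0.000207). Ppara had no read and Pparg 3 reads in 4T1 and 13 in 4TO7. Of 16 listed targets of LXR and PPAR receptors, 11 were tested, 3 passed higher in 4T1 and 6 higher in 4TO7 (median -0.62). In all 81.8% of those tested passed, beside 49.0% of all genes. Abca1, the cholesterol exporter and classical LXR target, had 6.05, 8.97 and 4.83 in 4T1 and 1865, 1738 and 2307 in 4TO7, 298-fold higher (log2 -8.04, SE 0.27, adjusted p = 2.162e-07). Its relative Abcg1, another LXR target, had the opposite order with 46.4, 63.8 and 49.2 against 0, 1.05 and 0, that is 161 reads against 1 (ratio 161, 95% counting interval 28.5 to 6392, adjusted p = 1.329e-05). Mylip, an LXR target that degrades the LDL receptor, had 304, 351 and 372 against 2777, 1229 and 3339 (log2 -2.72, SE 0.34, adjusted p = 0.0003323), and Acot1, a PPAR alpha target in liver, 108, 99.6 and 119 against 1386, 853 and 1359.6 (log2 -3.42, SE 0.23, adjusted p = 9.283e-06). The 2 LXR exporters thus went opposite ways, and the targets of a receptor class did not share a direction.

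The estrogen and estrogen-related receptors that were tested were higher in 4T1. Esrra, an orphan receptor of mitochondrial and oxidative genes, had 1417, 1195 and 1146 in 4T1 and 793, 624 and 672 in 4TO7, 1.80-fold higher (log2 0.85, SE 0.16, adjusted p = 0.003236). Esr2 (estrogen receptor beta) was low, with 26.2, 30.9 and 23.2 against 6.55, 5.24 and 14.9 (log2 1.60, SE 0.40, adjusted p = 0.0114). Esr1, estrogen receptor alpha and outside the 44, had 339, 450.4 and 564 against 59.9, 31.4 and 90.6 (log2 2.97, SE 0.39, adjusted p = 0.0004198). The lines did not overlap in any of the 3. The progesterone receptor Pgr had no read, and Esrrb (2 reads in 4T1) and Esrrg (4 reads in 4TO7) were too low to test.

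The corticoid receptors differed from each other. Nr3c1, the glucocorticoid receptor, had 2193, 3951 and 3617 in 4T1 and 3025, 3781 and 3526 in 4TO7, with full overlap (log2 -0.12, 95% interval -0.64 to 0.40, adjusted p = 0.684). Nr3c2, the mineralocorticoid receptor, had 19.2, 11.0 and 23.2 against 94.5, 34.6 and 94.6, 4.20-fold higher in 4TO7 without overlap (log2 -1.93, SE 0.46, adjusted p = 0.00895). Of 11 glucocorticoid responsive genes, all tested, 3 passed higher in 4T1 and 2 higher in 4TO7 (median -0.17), 45.45% beside 49.0% of all genes. The count of 2 became 1 in 6 alternatives, among them leaving out any 4T1 library or 4TO7 replicate 2 or 3. Tsc22d3, known as GILZ, had 349, 453 and 584 against 1369.7, 838 and 1283 (log2 -1.33, SE 0.25, adjusted p = 0.0032). Errfi1, an inhibitor of the EGF receptor, had 17126, 19641 and 14313 against 6858, 7019.9 and 7055 (log2 1.28, SE 0.14, adjusted p = 0.0001766). Cebpd (190 ± 70.7 against 62.7 ± 21.1) and Ddit4 (4094 ± 1850.3 against 1419 ± 647; SD, n = 3) were also higher in 4T1 (adjusted p = 0.00913 and 0.0149). Hsd11b1, which regenerates active glucocorticoid inside cells, had 86.8, 74.7 and 116 against 18.7, 2.10 and 17.9 (log2 3.13, SE 0.67, adjusted p = 0.005525).

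Nr5a2 (LRH-1), best known from liver and pancreas, was read almost only in 4T1. It had 15.1, 58.8 and 26.1 normalised reads in 4T1 and 0.94, 0 and 0 in 4TO7, 101 reads against 1 (ratio 101, 95% counting interval 17.7 to 4024; log2 4.57, SE 0.54, adjusted p = 0.000235). Its level was low throughout, 5.65 reads per kilobase in 4T1. The other members of these classes did not pass. The immediate early receptors Nr4a1 (515 ± 16.3 in 4T1, 489.9 ± 75.4 in 4TO7) and Nr4a2 (234 ± 51.4 and 281 ± 16.8) overlapped between the lines (SD, n = 3; adjusted p = 0.721 and 0.303), and Nr4a3 had 9 and 31 reads. Nr6a1 (186 ± 43.4 and 243 ± 20.6), an orphan receptor of germ cells, overlapped as well (adjusted p = 0.171).

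The testicular receptors TR2 and TR4, which repress through the same AGGTCA repeats as the COUP-TFs, did not pass. Nr2c1 (TR2) had 1204 ± 331 in 4T1 and 1168 ± 147 in 4TO7 (SD, n = 3; log2 0.01, 95% interval -0.51 to 0.53, adjusted p = 0.9746). Nr2c2 (TR4) had 3272 ± 833 and 4135 ± 141 (log2 -0.37, 95% interval -0.83 to 0.08, adjusted p = 0.153), with all 4TO7 libraries above those of 4T1. Of its exon bases 30.7% lie in Mrps25 on the opposite strand. The brain and retina receptors Nr2e1 and Nr2e3 had no read.

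All listed corepressors and coactivators except Bcl11a had reads in both lines, though Bcl11b and Ppargc1a were too low to test. Of 23 listed genes 21 were tested, 6 passed higher in 4T1 and 5 higher in 4TO7 (median -0.10), 52.4% beside 49.0% of all genes. The count in 4T1 was 2 without 4TO7 replicate 1 or replicate 3 and 3 without 4T1 replicate 1 or replicate 2. The general corepressor Ncor1 (10518 ± 2321 and 11095 ± 85.3; SD, n = 3) did not pass (adjusted p = 0.656). Bcl11a (CTIP1), a zinc-finger protein first described as a partner of COUP-TF, was the extreme of the list. It had 621, 832 and 807 normalised reads in 4T1 and no read in 4TO7, at least 762-fold higher against 3 reads over the 4TO7 libraries (adjusted p = 1.151e-07). Zfpm2 (FOG2), a corepressor that binds GATA factors and COUP-TFII, had 177, 193 and 199 against 10.3, 10.5 and 4.98, 22.1-fold higher in 4T1 (log2 4.37, SE 0.32, adjusted p = 1.446e-05). The coactivator Ncoa3 (AIB1) was higher in 4TO7 with 1296, 1966 and 1565 against 5523, 5908 and 6781 (log2 -1.93, SE 0.18, adjusted p = 5.356e-05). Ppargc1b, a coactivator of ERR alpha, had 109.97, 213 and 107 against 33.7, 96.4 and 48.8 (log2 1.31, SE 0.43, adjusted p = 0.0348), and its call was lost without 4T1 replicate 1 or 2 or 4TO7 replicate 1 or 3 (adjusted p of 0.0685 to 0.127). Bcl11a and Zfpm2 were thus both higher in the line with the lower Nr2f1, while 5 genes of the list, Ncoa3 among them, passed in the other direction. A link of these genes to Nr2f1 was not tested.

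The remaining members were at or near the limit of detection. No read was found for Nr2e1, Nr2e3, Rxrg, Rorb, Ppara, Hnf4a, Hnf4g, Nr0b1 and Nr0b2, receptors typical of brain, liver, gut or gonad, where a count of 0 allows up to 3 reads over the libraries of a line. Another 11 had reads but too few to be tested, with at most 13 in any library: Rarb, Thrb, Rora, Nr1h4, Nr1i2, Nr1i3, Pparg, Esrrb, Esrrg, Nr4a3 and Nr5a1. For Nr1i3 (12 and 10 reads), 74.9% of the exon bases lie in Tomm40l on the opposite strand (3365 and 2347 reads), so its few reads may not be its own. Smaller exon overlaps touch Nr2f2 (7.46%, with B130024G19Rik) and Esrra (1.66%, with Trmt112). Among the members above 100 reads per kilobase in at least 1 line, Nr2f1 alone differed by more than 3-fold between the line means.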

How the data were processed

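The 6 sample columns of the deposited table hold a normalised signal: per the file headers, the authors scaled gene read counts to library size. Further deposited columns give the authors' log2 fold changes (4TO7 over 4T1 by sign), a test score, and a p-value with its adjusted value. Per the submitters' processing notes, the tools were STAR 2.5, featureCounts 1.5 and DESeq2 on GRCm38. The annotation release and strand setting are not given in the sources used here. Every value was a whole multiple of a step per library (100% within 1e-06), so reads were recovered.

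Values were compared by limma 3.58.1 in R 4.3.3 on log2(value + 1), which understates changes of low genes, with trend and robust moderation, two-sided, for genes with at least 10 in at least 3 of 6 libraries, with Benjamini-Hochberg adjustment over 14276 genes and a threshold of 0.05. Folds without log2 are ratios of line means. Counting intervals (exact, 95%) and the floor of 3 reads cover counting error only. Alternatives changed pseudocount, filter, scaling, variance model, tool (edgeR 4.0.16, DESeq2 1.42.0) and libraries. The fit was also run on simulated counts with far fewer changed genes and the same dispersion for every gene. That run does not show how the fit behaves on these libraries.

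The members and the 9 gene lists (120 genes) were chosen with earlier results of these data known. Named were all members, the 4 passing genes of each list that differed most, other nuclear receptors, markers, and neighbours within 500 kb of Nr2f1. Crabp2, Rbp2, Adh7, Aldh1a and Cyp26 genes, Meis1 and Ncor1 were added after their values were seen. Some genes that this rule takes are not reported here. Exon lengths, overlaps and coding windows are from GENCODE for GRCm38, promoters from RefSeq (GRCm38.p6).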

Additional observations from a re-analysis of the deposited data

How the results depend on the processing

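Of 58 genes followed under up to 16 alternatives, 44 kept direction and side of the threshold in each that gave a value; 7 lost a call, 3 gained one and 4 changed sign. The number of nuclear receptor genes higher in 4T1 was 4 in the main comparison and 2 with a filter of at least 50, under which Esr2 and Nr5a2 were not tested. The number higher in 4TO7 was 5 and ran from 3 (without 4TO7 replicate 1) to 6 (without 4TO7 replicate 2) when libraries were left out. Among retinoid receptors, 1 was higher in 4T1 with no low-value filter (Rarb) and 1 higher in 4TO7 with equal totals (Rarg); other alternatives gave 0. Equal totals moved the split over all genes to 2968 higher in 4T1 and 4060 higher in 4TO7, from 3585 and 3412. Signs changed only in members that did not pass. Nr2c1 was -0.12 with equal totals, -0.044 with quantile normalisation and -0.14 to 0.26 with a library left out. Thra was -0.013 by edgeR and -0.33 to 0.40 with a library left out, the lowest without 4TO7 replicate 2. Nr3c1 ran from -0.28 to 0.14, the highest without 4T1 replicate 1, and Nr4a1 from -0.021 (without 4TO7 replicate 2) to 0.20, with -0.046 under equal totals. The causes were not tested. Genes with under 10 normalised reads were limited by depth.

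Same-numbered libraries did not deviate together in every pair (r across genes of -0.01, 0.27 and 0.33), so replicate numbers were not taken to pair the samples. With the replicate block, 7750 genes passed in place of 6997, and 9 nuclear receptor genes passed, 4 higher in 4T1 and 5 higher in 4TO7; the log2 fold change of Nr2f1 was -3.79. Replicates 2 and 3 of both lines correlated best with their own number, and replicate 1 of neither line did. Whether same-numbered libraries shared a batch was not tested.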
